A study of Mus musculus with 18 samples.

Results

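The SR proteins, their kinases and the heterogeneous nuclear ribonucleoproteins (hnRNPs) were followed as a set of 37 genes in naive CD4+ T cells of the mouse. Members were chosen by symbol: every gene of the deposited table named Srsf followed by a number, every Hnrnp gene, Clk1 to Clk4, and Tra2a and Tra2b, without pseudogene symbols. This gave 11 SR protein genes, 20 hnRNP genes, 4 Clk kinase genes and 2 Tra2 genes of 15137 symbols, and all 37 were abundant enough to be tested. The rule uses symbols and no measured value.

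The study profiled sorted splenic naive CD4+ T cells (CD3+CD4+CD25-CD62L+CD44-) of C57BL/6J mice by RNA sequencing, in 6 groups of 3 libraries. Control cells and Creld1 conditional knockout (cKO) cells, in which CD4-Cre deletes Creld1 in the T cell lineage, were taken freshly isolated, after 8 h of unstimulated culture, or after 8 h with anti-CD3 and anti-CD28 antibodies at 1 µg/ml. All groups thus share strain, organ and sort gate, and both cultured conditions share the medium. The age of the mice and the alleles of the control mice are not given in the labels. All 3 libraries of a group carry the same mouse number, each group has a number of its own, and nothing states that the libraries came from separate animals. If the number marks an animal, differences between groups and between single animals cannot be told apart, so a p-value here reflects library-to-library spread that may be technical. Values are deposited log2 expression values, and the depth behind them is unknown.

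SR proteins carry RNA-recognition motifs and a domain rich in arginine and serine, bind exonic enhancers and generally promote inclusion of the exon they bind. The Tra2 proteins are related activators. Clk kinases phosphorylate the arginine-serine domains and so release SR proteins from nuclear speckles, whereas hnRNPs coat nascent transcripts and often repress splice sites. Many of these genes hold ultraconserved exons whose inclusion sends the transcript into nonsense-mediated decay, by which the proteins limit their own abundance. In T cells the set is known for its part in activation-dependent splicing, such as that of the CD45 gene Ptprc, which Hnrnpll and Hnrnpl repress.

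Promoter sequences are shown for the 4 members with the largest falls in culture (Tra2b, Tra2a, Hnrnph1 and Srsf3) and for Srsf1, an SR protein gene that did not fall. Each is the stretch of 250 bases before the most upstream RefSeq start of the gene in GRCm38.p6, written 5′ to 3′ on the gene's strand. Tra2b lies at chr16:22266006-22266255 (minus strand), Tra2a at chr6:49264053-49264302 (minus), Hnrnph1 at chr11:50376740-50376989 (plus), Srsf3 at chr17:29032410-29032659 (plus) and Srsf1 at chr11:88047123-88047372 (plus). Capitals mark matches, on either strand, to the motifs named after the sequences.
Tra2b: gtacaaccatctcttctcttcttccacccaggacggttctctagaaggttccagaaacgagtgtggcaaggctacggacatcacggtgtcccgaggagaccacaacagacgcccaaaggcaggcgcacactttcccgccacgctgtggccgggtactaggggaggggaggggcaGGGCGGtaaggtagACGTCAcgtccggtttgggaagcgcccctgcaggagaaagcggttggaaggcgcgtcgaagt
Tra2a: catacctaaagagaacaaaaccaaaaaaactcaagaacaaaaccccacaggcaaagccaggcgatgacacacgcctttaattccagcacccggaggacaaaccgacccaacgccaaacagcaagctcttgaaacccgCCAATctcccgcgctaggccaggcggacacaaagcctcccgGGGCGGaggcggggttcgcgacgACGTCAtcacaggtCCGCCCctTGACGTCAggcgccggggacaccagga
Hnrnph1: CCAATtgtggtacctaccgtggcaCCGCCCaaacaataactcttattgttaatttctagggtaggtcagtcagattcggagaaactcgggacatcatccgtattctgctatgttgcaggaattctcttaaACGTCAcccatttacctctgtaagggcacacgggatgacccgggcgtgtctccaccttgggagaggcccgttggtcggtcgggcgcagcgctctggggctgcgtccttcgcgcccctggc
Srsf3: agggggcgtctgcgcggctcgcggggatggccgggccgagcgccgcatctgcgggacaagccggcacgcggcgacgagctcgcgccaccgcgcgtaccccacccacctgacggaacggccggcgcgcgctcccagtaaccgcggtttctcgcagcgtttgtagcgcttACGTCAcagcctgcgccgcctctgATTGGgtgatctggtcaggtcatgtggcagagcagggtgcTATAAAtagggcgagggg
Srsf1: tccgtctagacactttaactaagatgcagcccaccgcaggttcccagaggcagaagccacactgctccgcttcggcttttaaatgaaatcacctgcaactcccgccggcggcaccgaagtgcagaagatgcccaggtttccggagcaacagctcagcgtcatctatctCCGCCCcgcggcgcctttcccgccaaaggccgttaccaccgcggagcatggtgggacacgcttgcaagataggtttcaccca

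The RefSeq table held promoters for 34 of the 37 members (not for Clk1, Hnrnpll and Hnrnpul2) and for 8600 tested genes. The core of the cyclic AMP response element (CRE), TGACGT, was in 10 of the 34 (29.4%), against 10.9% of the 8600. All 4 of the fallen genes shown carry it, and the shown stretch of Srsf1 holds only a GC box. Among members called lower in culture in both genotypes, 5 of 12 promoters held the core, and among the others 5 of 22. The full CRE, TGACGTCA, which contains the core, was in 2 member promoters, those of Tra2a and Clk4 (5.88%, against 2.88%). The GC box GGGCGG was in 82.4% of member promoters (59.3% of all), CCAAT in 17 of the 34 (37.5% of all), the ETS motif CCGGAAG in 20.6% (15.4%), the E-box CACGTG in 8.82% (8.6%) and TATAAA in 8.82% (6.22%). These are matches of letters and no measurement of binding.

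Most members were abundant in fresh control cells. Dividing linear values by the median length of each gene's coding transcripts gave a median level of 1128 per kb, against 114.8 per kb for all tested genes. Srsf5 was highest, at 6239 ± 211 (SD, n = 3), followed by Hnrnpk at 6064, Hnrnpa2b1 at 5437 and Hnrnpf at 4760. Clk1 had the highest level of the kinase genes, at 3624. Srsf12, an SR-like splicing repressor, was lowest, at 14.86, and the next, Hnrnpll, was at 137.1. The family medians were close, with 1128 for SR proteins, 1082 for hnRNPs, 930.8 for Clk kinases and 1262 for the Tra2 pair. Most neighbours in the order could not be separated: in 8 of 36 neighbouring pairs all 3 libraries of the higher gene lay above all 3 of the lower, as between Hnrnpf and Clk1, while Srsf5, Hnrnpk, Hnrnpa2b1 and Hnrnpf overlapped from one to the next.

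Several members lie on the same stretch of a chromosome, and genes between them were not listed. Hnrnpd (chromosome 5, 99955935 to 99978938) lies near Hnrnpdl (100033577 to 100039664), both on the minus strand in GRCm38. Hnrnpll (chromosome 17, 80029487 to 80062334) lies near Srsf7 (80200080 to 80207307). Hnrnph1, Clk4 and Hnrnpab lie within one stretch of chromosome 11 (50376990 to 51606847). The library kit does not mark strand, so that reads of members and of genes overlapping them on the other strand cannot be told apart. Among genes with values here this touches Clk3 (overlapped by Edc3), Hnrnpab (Phykpl), Hnrnph3 (Rufy2), Hnrnpk (Rmi1), Hnrnpu (Cox20) and Srsf2 (Mettl23 and Mfsd11). Overlaps on the other strand with genes not analysed here are annotated for Clk4, Hnrnpd, Hnrnpf, Hnrnpl, Hnrnpll, Hnrnpr, Srsf1, Srsf4 and Tra2a. Several hnRNP genes, Hnrnpa1 among them, also have processed pseudogenes with near-identical sequence, and the labels do not say how reads shared with these were counted.

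The labels and the cells were checked first. Creld1 had log2 values of 4.33 to 4.85 in fresh control and 3.70 to 4.40 in fresh cKO libraries, 4.81 to 5.40 and 3.82 to 4.33 unstimulated, and 4.41 to 5.10 and 4.14 to 4.62 stimulated. The cKO mean was lower in each condition, the genotypes did not overlap after unstimulated culture, and no difference passed over all genes (limma adjusted p = 0.79, 0.103 and 0.974). Cd4 had a mean log2 value of 12.74 over the libraries, and the CD8 gene Cd8a and the myeloid gene Lyz2 were at 1.59 and 2.75. Genes of the same marker lists differed widely. Cd8b1 was at 6.41 and Prf1 at 6.32, while Gzmb was at -0.70. Cd68 was at 4.68 and Itgam at 4.47, while Csf1r was at -0.28. Of 9 tested markers of stimulation, 4 rose with antibodies in control and 3 in cKO cells, Egr2 going from a mean of 7.16 to 8.30 in control cells. Libraries differed in how their values depended on the GC content of transcripts. This slope (log2 per SD of GC content) ran from -0.32 to 0.24, with replicate 3 of fresh cKO at 0.16 against -0.20 and -0.32 in its group, and replicate 1 of fresh control at -0.16 against 0.08 and 0.06. Members are poorer in GC than most genes, with a median of 44.68% against 50.43% over all tested genes, and 27 of 37 lie below the latter.

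**Figure D1:**
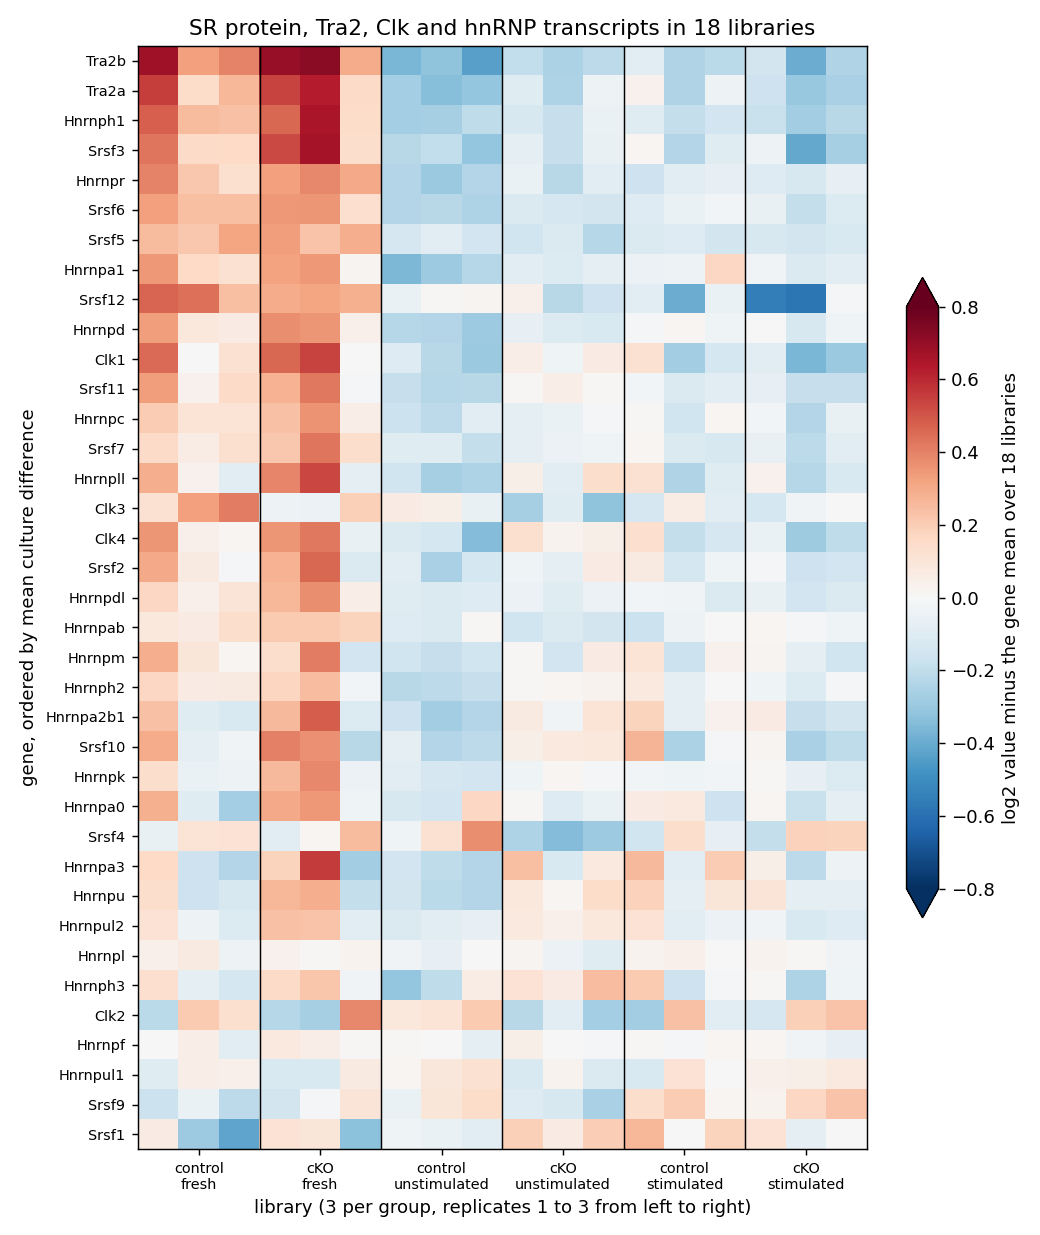
Log2 value of each of the 37 members (rows, ordered by mean culture difference) in each of 18 libraries (columns, 3 per group), shown as the deviation from the gene's mean over the 18 libraries on a colour scale from blue (lower) to red (higher). The upper rows, from Tra2b to Srsf6, are red in the 6 fresh libraries and blue or pale in the 12 cultured ones, and fresh cKO replicate 3 is paler than the other fresh cKO libraries in most rows.

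Culture without stimulation lowered a large share of the set and raised none of it. In control cells 16 of 37 members fell and 0 rose after 8 h (limma, adjusted p under 0.05 over 10877 genes, two-sided), where 14.1% of all tested genes fell and 14.9% rose. In cKO cells 13 fell and 0 rose, where 11.4% of tested genes fell and 10.7% rose. The median log2 difference of the members was -0.27 in control and -0.25 in cKO cells, against 0.04 and -0.02 over all tested genes. With the GC slope in the model the member medians were -0.15 and -0.25, and with quantile normalization -0.22 and -0.14. The genes called lower in both genotypes were 12: Tra2a, Tra2b, Srsf3, Srsf5, Srsf6, Srsf7, Hnrnpa1, Hnrnpc, Hnrnpd, Hnrnpdl, Hnrnph1 and Hnrnpr, or 32.4% of the set against 8.79% of tested genes. In bulk samples such as these, a change in the mix of cells and a change of RNA within each cell cannot be told apart. For 13 members every cultured library, stimulated or not, lay below every fresh library, as for 7.04% of tested genes, and for 0 members every cultured library lay above, as for 6.2%.

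**Figure D2:**
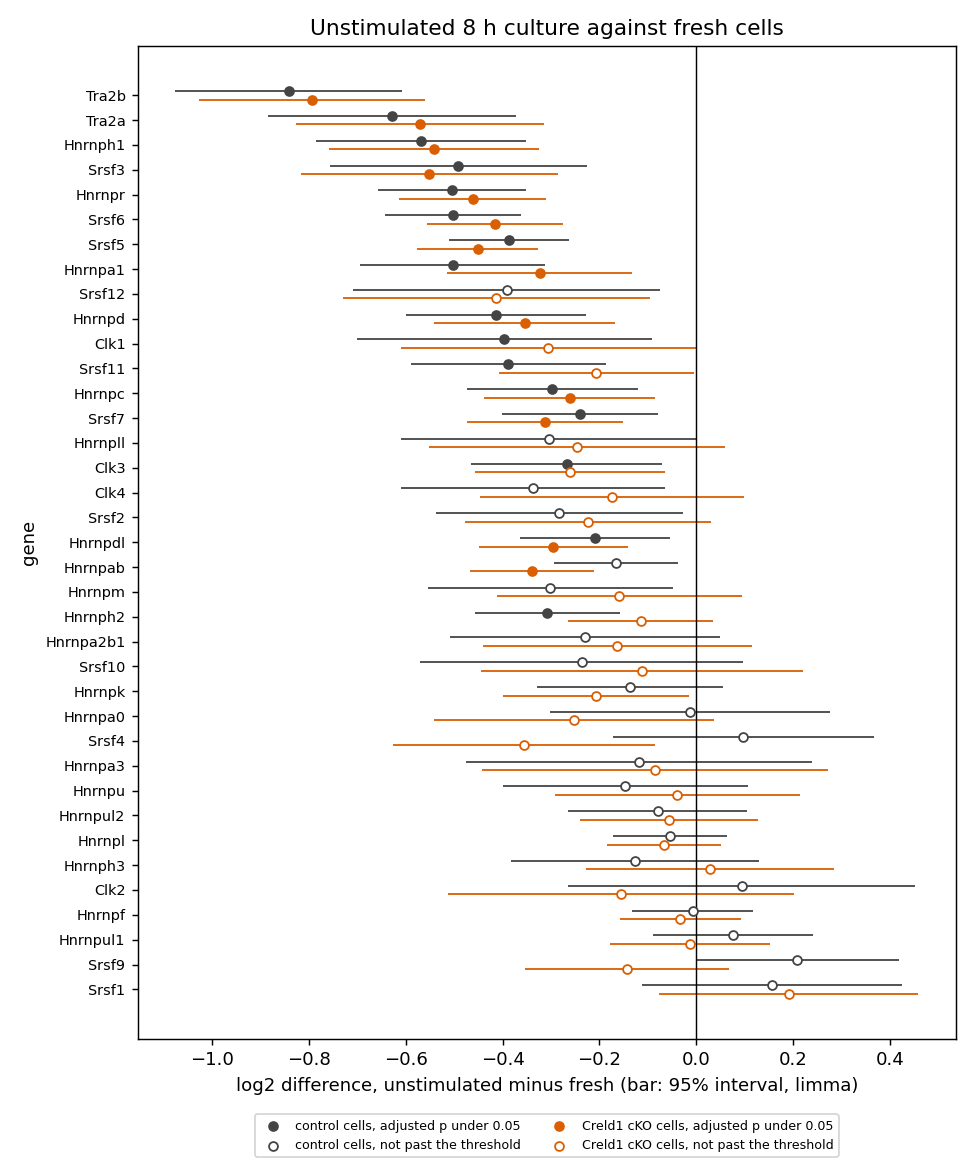
Log2 difference of unstimulated 8 h culture minus fresh cells for the 37 members, with 95% intervals from limma, in control (dark) and Creld1 cKO cells (orange). Filled points passed the threshold: all lie left of 0, from Tra2b at -0.84 and -0.79 upward, and Srsf1, at the bottom, lies right of 0 in both genotypes without passing.

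The pair of Tra2 genes fell most. Tra2b, an activator of exons rich in GAA repeats, had log2 values of 11.67, 11.32 and 11.40 in fresh control cells and 10.63, 10.67 and 10.56 after unstimulated culture. In cKO cells the values were 11.69, 11.72 and 11.30 fresh and 10.80, 10.74 and 10.79 unstimulated. All cultured libraries lay far below the lowest fresh one in both genotypes. The difference was -0.84 ± 0.11 (SE; limma adjusted p = 5.34e-05), a level 44.2% lower, in control cells and -0.79 ± 0.11 (limma adjusted p = 0.000104), 42.3% lower, in cKO cells. When the model held each library's GC slope, the differences were -0.70 and -0.80. Tra2a, its paralogue, was at 11.44, 11.04 and 11.15 in fresh and 10.62, 10.55 and 10.58 in unstimulated control libraries, again without overlap. It fell by 35.3% in control (-0.63 ± 0.12, limma adjusted p = 0.00126) and by 32.7% in cKO cells (-0.57 ± 0.12, limma adjusted p = 0.00302).

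Of the 11 SR protein genes, 5 fell in control cells and 4 in cKO cells, where 14.1% and 11.4% of all tested genes fell. Srsf3, the smallest SR protein and a regulator of its own splicing and of mRNA export, was at 11.91, 11.63 and 11.65 in fresh control and at 11.26, 11.29 and 11.17 in unstimulated control libraries. In cKO cells it was at 12.01, 12.15 and 11.63 fresh and at 11.41, 11.30 and 11.43 unstimulated, so that the groups were apart in both genotypes though the fresh libraries varied widely. It fell by 0.49 and by 0.55 on the log2 scale (SE 0.12 each, limma adjusted p = 0.00849 and 0.00481).

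Among the SR protein genes, Srsf5 and Srsf6 varied least between replicates. Srsf5 was at 13.18, 13.15 and 13.24 in fresh control, 12.79, 12.84 and 12.78 in unstimulated control, 13.26, 13.16 and 13.22 in fresh cKO and 12.77, 12.81 and 12.70 in unstimulated cKO libraries. No cultured library reached the fresh range. The difference was -0.39 ± 0.06 in control and -0.45 ± 0.06 in cKO cells (limma adjusted p = 0.000186 and 5.39e-05). Srsf6 fell by 0.50 in control and by 0.41 in cKO cells on the log2 scale (SE 0.07 each, limma adjusted p = 5.82e-05 and 0.000331), from 12.16 to 12.25 in fresh control libraries down to 11.68 to 11.70 in unstimulated control libraries. Srsf7, an export adaptor like Srsf3, fell less, by 0.24 and 0.31 on the log2 scale. Srsf11 fell by 0.39 in control cells (limma adjusted p = 0.00665), and its value in cKO cells, -0.21, did not pass (limma adjusted p = 0.135). The interaction of genotype with culture did not pass for any member (smallest limma adjusted p = 0.843).

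The other SR protein genes did not pass. Srsf2, founder of the family under the name SC35, differed by -0.28 and -0.22 (limma adjusted p = 0.0873 and 0.205). Srsf12 had all cultured libraries below all fresh ones, at differences of -0.39 and -0.41 (limma adjusted p = 0.060 and 0.0593), at a low level where the spread is wide. Srsf4 differed by -0.36 in cKO cells (limma adjusted p = 0.0567) and by 0.10 in control cells (limma adjusted p = 0.587). Srsf9 differed by 0.21 in control and by -0.14 in cKO cells (limma adjusted p = 0.125 and 0.341). Srsf1, the SR protein that also activates translation and was first known as ASF/SF2, had positive differences in both genotypes. It was at 11.55, 11.20 and 11.06 in fresh control and at 11.45, 11.43 and 11.39 in unstimulated control libraries. The fresh libraries spanned the cultured range, and the differences of 0.16 in control and 0.19 in cKO cells did not pass (limma adjusted p = 0.364 and 0.318, with 95% intervals of -0.11 to 0.42 and -0.08 to 0.46). In the model with the GC slope Srsf1 was called higher in both, by 0.32 (limma adjusted p = 0.000343) and 0.18 (limma adjusted p = 0.0165), the only member so called, where 22.0% and 20.5% of tested genes rose.

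**Figure D3:**
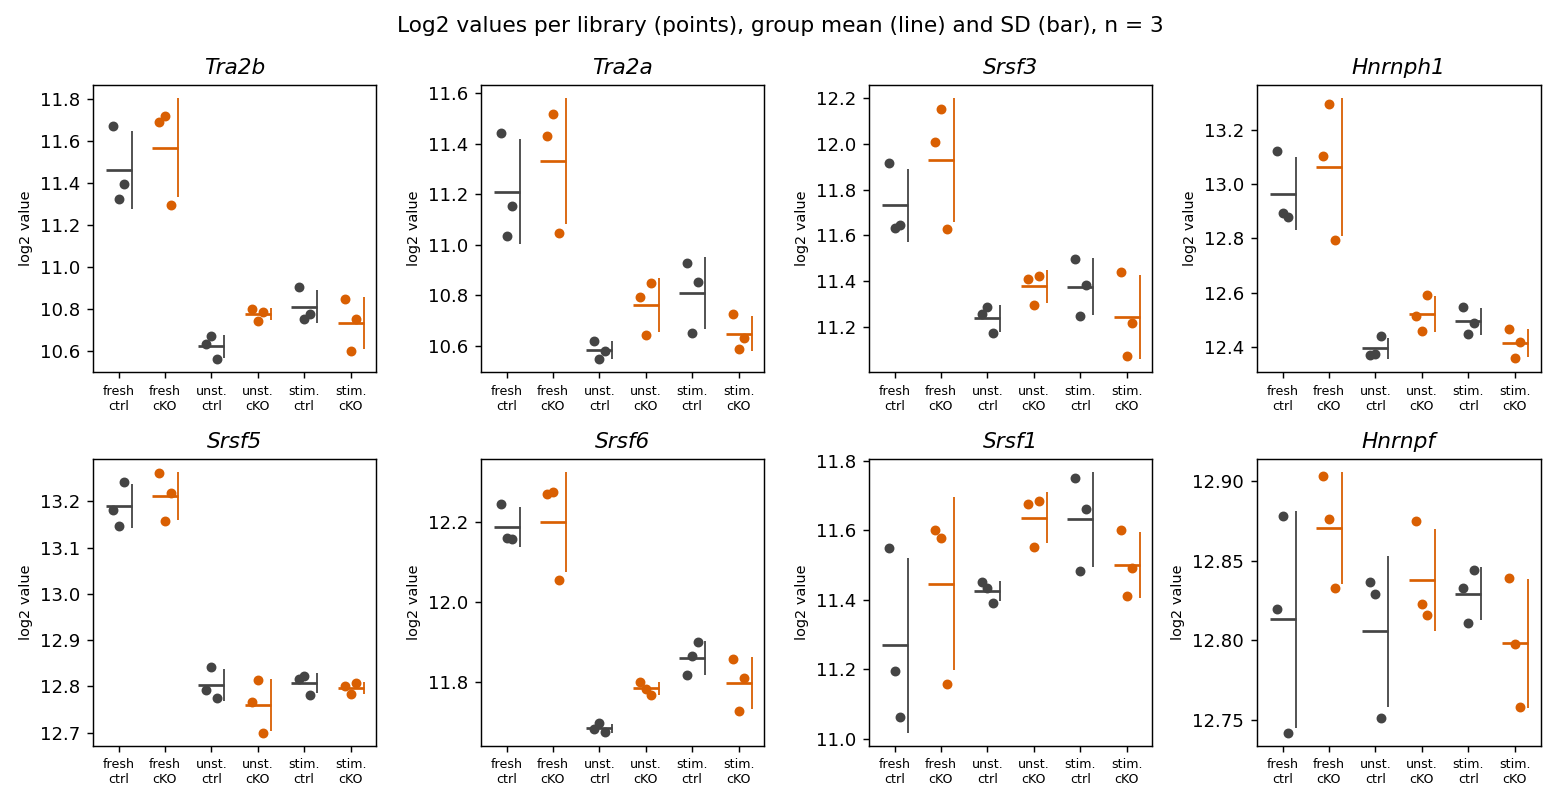
Log2 values of 8 members in each library (points), with the group mean (line) and SD (bar, n = 3), for fresh, unstimulated (unst.) and stimulated (stim.) control (ctrl) and cKO cells, on a separate vertical axis per gene that does not start at 0. Tra2b, Tra2a, Srsf3, Hnrnph1, Srsf5 and Srsf6 are high in the fresh groups and low in both cultures, while in Srsf1 and Hnrnpf the fresh and unstimulated libraries of each genotype overlap.

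Of the 20 hnRNP genes, 7 fell and 0 rose in each genotype. Over all tested genes, 14.1% fell and 14.9% rose in control cells, and 11.4% fell and 10.7% rose in cKO cells. Hnrnph1, which binds runs of G and can repress or activate an exon depending on position, was at 13.12, 12.90 and 12.88 in fresh control and 12.37, 12.38 and 12.44 in unstimulated control libraries. In cKO cells it was at 13.10, 13.29 and 12.79 fresh and 12.51, 12.46 and 12.59 unstimulated. Fresh and cultured libraries did not overlap, although fresh cKO replicate 3 stood well below its group. Hnrnph1 fell by 32.6% in control (-0.57 ± 0.10, limma adjusted p = 0.000759) and by 31.3% in cKO cells (-0.54 ± 0.10, limma adjusted p = 0.00127). Hnrnpr, which binds nascent RNA and is close to Syncrip, fell by 0.50 and 0.46 on the log2 scale (SE 0.07 each, limma adjusted p = 0.000112 and 0.00026).

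Hnrnpa1, the best known repressor of the family and an antagonist of Srsf1 at splice-site choice, was at 12.21, 12.03 and 11.99 in fresh control and 11.51, 11.58 and 11.64 in unstimulated control libraries. It fell by 0.50 in control (SE 0.09, limma adjusted p = 0.000746) and by 0.32 in cKO cells (limma adjusted p = 0.0166). Hnrnpd, which encodes the AU-rich element binding protein AUF1, fell by 0.41 and 0.35, and Hnrnpdl, which lies near it, by 0.21 and 0.30. The control call of Hnrnpdl was lost under 15 of the 30 alternatives. Hnrnpc, a packaging protein that binds runs of U, fell by 0.30 and 0.26, and its cKO call was lost under 8 alternatives. Hnrnph2, on the X chromosome, was called in control cells alone (-0.31, limma adjusted p = 0.00446, against -0.11 and 0.275 in cKO cells). Hnrnpab was called in cKO cells alone (-0.34, limma adjusted p = 0.000835, against -0.17 and 0.0506 in control cells). For neither gene is a difference between the genotypes shown, since the interaction did not pass.

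The hnRNPs with the best known targets in T cells did not pass. Hnrnpl was at 11.72, 11.75 and 11.64 in fresh control and 11.65, 11.62 and 11.68 in unstimulated control libraries, with overlapping groups and differences of -0.05 and -0.07 (limma adjusted p = 0.477 and 0.44). Hnrnpll, the inducible repressor of CD45 exons, was at 8.92, 8.66 and 8.54 fresh and 8.47, 8.36 and 8.37 unstimulated in control cells. These libraries did not overlap, but the differences of -0.30 and -0.25 did not pass (limma adjusted p = 0.122 and 0.251). Hnrnpf, the close paralogue of Hnrnph1, differed by -0.01 and -0.03, with 95% intervals of -0.13 to 0.12 and -0.16 to 0.09. Its direction in both genotypes turned under quantile normalization.

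Among the 4 kinase genes, Clk1 and Clk3 were called lower in control cells, near the threshold. Clk1 was at 12.92, 12.46 and 12.59 in fresh and 12.36, 12.24 and 12.17 in unstimulated control libraries, a difference of -0.40 ± 0.14 (limma adjusted p = 0.0484). Clk3 differed by -0.27 ± 0.09 (limma adjusted p = 0.0406). These calls were lost under 16 and 12 of the 30 alternatives. In cKO cells the differences were -0.31 and -0.26 (limma adjusted p = 0.145 and 0.0551). Clk4 differed by -0.34 and -0.17 (limma adjusted p = 0.0598 and 0.379), and Clk2 was not called in either genotype.

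The cKO count rests on the settings more than the control count. It was 23 of 37 without fresh cKO replicate 3 (16.7% of tested genes then fell), 27 with the GC slope in the model (24.9% fell), 29 with library weights (26.2% fell), and 5 when only the groups compared were fitted (3.93% fell and 3.53% rose), the 5 being Hnrnpab, Hnrnpr, Srsf5, Srsf6 and Tra2b. The control count stayed between 11 and 23 over all alternatives, with 19 under the GC slope, where 20.9% of tested genes fell.

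Other measures moved with culture as well. The deposited linear values summed to between 7192712 and 7419367 in fresh libraries and to between 6782465 and 7127654 in cultured ones. With libraries centred on their median ratio, the counts of fallen members were 16 and 12, where 14.7% and 10.6% of tested genes fell. Of the 8 memory T cell markers 4 were tested, of which 3 fell in control and 2 in cKO cells, and their summed linear level was 1620 to 1750 in fresh control, 1600 to 1690 in fresh cKO, 1140 to 1210 in unstimulated control and 1170 to 1360 in unstimulated cKO libraries. Of 8 myeloid markers 5 were deposited and 2 tested, of which 2 fell in control and 1 in cKO cells, with sums of 76.0 to 82.4 and 66.1 to 91.7 in fresh and 45.9 to 52.5 and 47.0 to 55.4 in unstimulated libraries, and with Csf1r and Adgre1 near 0 on the log2 scale. Of 8 cytotoxic and natural killer markers 2 were tested, of which 1 fell in each genotype (sums of 192 to 274 and 177 to 274 fresh, 159 to 190 and 129 to 167 unstimulated). All 6 naive T cell markers were tested, of which 4 rose in control and 2 in cKO cells, with sums of 39900 to 40700 and 39900 to 41000 in fresh and 51300 to 52100 and 49800 to 51500 in unstimulated libraries. Of 9 tested markers of stimulation 2 fell in control and 4 in cKO cells, with sums of 5900 to 6760 and 5640 to 8000 in fresh and 2370 to 3610 and 2440 to 2680 in unstimulated libraries. Of 6 regulatory T cell markers 1 rose and 2 fell in control cells and 1 fell in cKO cells. Of 8 B cell markers 1 was tested, Cd79a, which rose in control cells (0.82, limma adjusted p = 0.00563) and was at 0.33 in cKO cells (limma adjusted p = 0.26). The part of these markers in the result was not tested.

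No member passed the threshold for stimulation by antibodies in either genotype. Against unstimulated culture, 0 of 37 rose or fell in control cells, where 0.313% of tested genes rose and 0.0368% fell, and 0 in cKO cells, where 0.285% were called (0.276% rose and 0.00919% fell). At an unadjusted p under 0.05, limma gave 5 members in control cells, all higher, and 3 in cKO cells, all higher. Of all 10877 tested genes, 594 were higher and 639 lower under this cut in control cells, and 1597 higher and 914 lower in cKO cells. The smallest adjusted p of a member was 0.174 and 0.189 (limma). The median difference of the members was 0.13 in control and -0.06 in cKO cells, against -0.02 and 0.01 over all tested genes. With the GC slope in the model the member medians were 0.0131 and 0.087, so that the direction in cKO cells turned, and with a GC spline removed they were 0.0602 and 0.00967.

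Hnrnpa1 came nearest in control cells. It was at 11.51, 11.58 and 11.64 in unstimulated and 11.82, 11.83 and 12.03 in stimulated control libraries, which do not overlap, and the difference of 0.32 did not pass (limma adjusted p = 0.174). In cKO cells the nearest was Srsf9, at 7.14, 7.11 and 6.98 unstimulated and 7.27, 7.41 and 7.47 stimulated, a difference of 0.31 (limma adjusted p = 0.189). Hnrnpu, a scaffold attachment factor, differed by 0.27 in control cells and Srsf4 by 0.35 in cKO cells, likewise without passing. Without fresh cKO replicate 3, which enters the shared estimate of spread, Hnrnpa1 passed (limma adjusted p = 0.0428) and was the only member to do so (0.809% of tested genes rose). When libraries were weighted by their fit, 14 members were higher in control cells (10.1% of tested genes rose), and 6 were higher and 12 lower in cKO cells (29.6% rose and 23.5% fell).

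**Figure D4:**
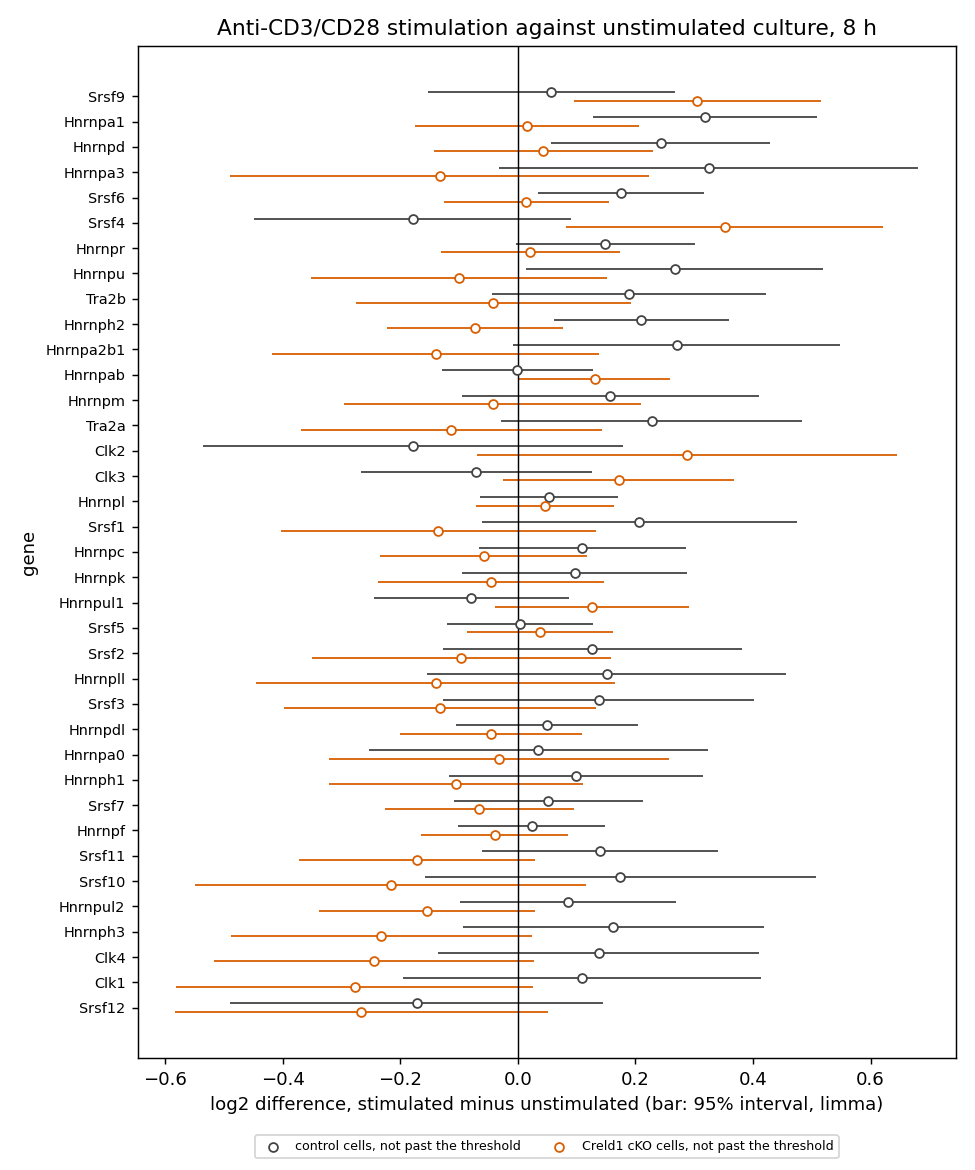
Log2 difference of stimulated minus unstimulated 8 h culture for the 37 members, ordered by the mean of both, with 95% intervals from limma, in control (dark) and cKO cells (orange). All points are open, since none passed, and the control points lie mostly right of 0 (31 of 37) while the cKO points lie mostly left of it (25 of 37).

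Stimulated cells were also set against fresh cells, a comparison added after the data were seen. It shares the fresh libraries with the culture comparison, so the values stand side by side and are no second test of it. In control cells 8 members were lower (9.26% of tested genes fell) and 0 higher (9.58% rose): Tra2a, Tra2b, Srsf5, Srsf6, Srsf12, Hnrnph1, Hnrnpr and Clk3. In cKO cells, where 30.3% of tested genes were called, 18 were lower (15.7% fell) and 0 higher (14.5% rose). Tra2b was at 10.90, 10.75 and 10.78 in stimulated control and 10.85, 10.60 and 10.75 in stimulated cKO libraries, still far below the fresh range. Its difference from fresh cells was -0.65 in control cells and -0.83 in cKO cells (limma adjusted p = 0.000597 and 6.29e-05). Srsf1 differed by 0.36 in control cells, short of the threshold (limma adjusted p = 0.056), and by 0.05 in cKO cells. With the GC slope in the model the control counts were 19 lower (20.7% fell) and 4 higher (20.3% rose). The cKO count of lower members was 28 without fresh cKO replicate 3 (24.3% fell). It was 12 with quantile normalization (14.7% fell) and 5 when only the groups compared were fitted (3.78% fell).

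Between genotypes no member passed in any condition, and none passed either interaction. Over all tested genes, 0.00919% rose and 0.0% fell fresh, and 0.0% changed in either direction unstimulated or stimulated. At an unadjusted p under 0.05, limma gave 1 member fresh (Clk3, -0.25), 8 unstimulated (5 higher and 3 lower in cKO cells) and 0 stimulated. Of all 10877 tested genes, 429 were under this cut fresh, 3606 unstimulated (1144 higher and 2462 lower) and 160 stimulated. The smallest adjusted p of a member was 0.79, 0.103 and 0.974. Over all tested genes, 0.0% passed the interaction with culture and 0.00919% that with stimulation. The former had 2 members at an unadjusted p under 0.05 and the latter had 7, with smallest adjusted p of 0.843 and 0.166 (limma). Of all 10877 tested genes, 545 and 3049 were under the same unadjusted cut. Without fresh cKO replicate 3 the counts were 5 higher and 1 lower fresh (4.15% and 6.82% of tested genes), 3 higher and 2 lower unstimulated (6.97% and 19.1%), and 1 higher and 2 lower for the interaction with stimulation (12.2% and 3.07%). With library weights they were 23 and 3 fresh (25.7% and 25.0% of tested genes), 22 and 5 unstimulated (24.7% and 31.6%), and 5 and 24 for that interaction (30.7% and 23.6%).

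Between the genotypes after unstimulated culture, Srsf4 and Hnrnph2 had the smallest p of the members, though no member passed. Srsf4 was at 8.79, 8.94 and 9.19 in control and 8.57, 8.48 and 8.54 in cKO libraries, a difference of -0.45 ± 0.13 (limma adjusted p = 0.103). Hnrnph2 was at 10.02, 10.03 and 10.06 in control and 10.26, 10.26 and 10.27 in cKO libraries, a difference of 0.22 ± 0.07 (limma adjusted p = 0.103). In both genes the 3 libraries of one genotype lay all on one side of the other 3. When only these 2 groups were fitted, 11 members were called higher and 3 lower (11.6% of tested genes rose and 22.8% fell), and in the same way 1 was called higher and 8 lower for the interaction with stimulation (15.8% and 5.99%). The GC slope separated the same groups: it was 0.07 to 0.24 in unstimulated control and -0.19 to -0.07 in unstimulated cKO libraries. With the slope in the model the difference was -0.19 for Srsf4 and 0.10 for Hnrnph2, and with a GC curve removed from each library it was 0.02 and 0.01.

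Across the 37 members, the genotype difference after unstimulated culture fell with transcript GC content (Pearson r = -0.76, Spearman rho = -0.66), much as across all tested genes (r = -0.74). The culture difference in cKO cells had little relation to it (r = 0.13), and that in control cells more (r = 0.47). Over all tested genes these were -0.03 and 0.36. Members share the same libraries, so these coefficients describe the 18 libraries and carry no p. The r of the stimulation difference was -0.65 in control and 0.67 in cKO cells, against -0.61 and 0.67 over all tested genes.

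**Figure D5:**
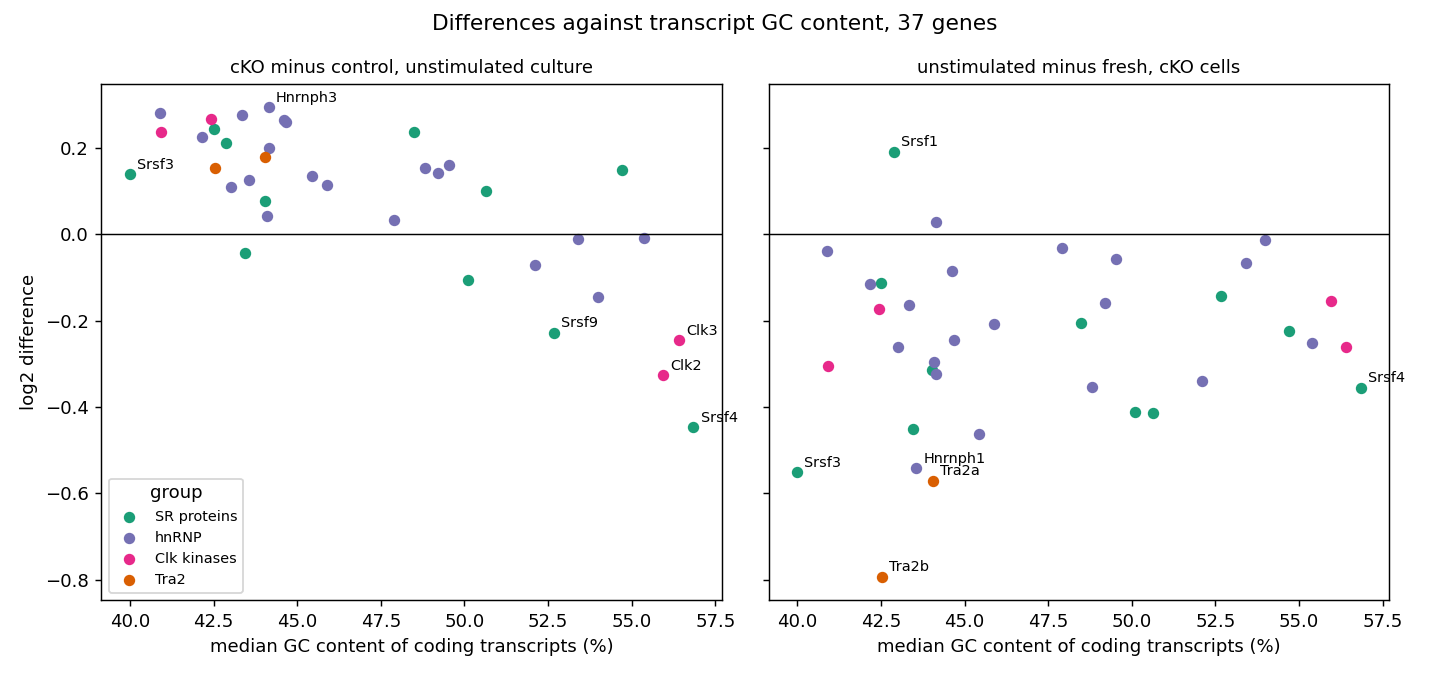
Log2 difference (vertical axis) against the median GC content of a gene's coding transcripts in percent (horizontal axis) for 37 members, coloured by family. On the left, cKO minus control after unstimulated culture declines from low to high GC content (r = -0.76), with Srsf4 lowest at -0.45, and on the right, unstimulated minus fresh in cKO cells shows little slope (r = 0.13), with Tra2b lowest at -0.79.

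Genes that work beside the set were read from lists fixed by name. Among 54 core spliceosome proteins, 16 fell and 1 rose in cultured control cells and 10 fell and 1 rose in cKO cells, where 14.1% and 11.4% of all tested genes fell, with list medians of -0.12 and -0.20. Snrpd3 and Snrpd1, of the Sm ring around each small nuclear RNA, fell by 0.53 and 0.54 in control and by 0.49 and 0.51 in cKO cells on the log2 scale. Sf1, which binds the branch point, fell by 0.45 and 0.27, while Prpf18, a second-step factor, rose by 0.36 and 0.37. Among 42 tested other splicing regulators, 12 fell and 3 rose in control and 11 fell and 2 rose in cKO cells. Sfpq, a paraspeckle protein, had the largest fall of those named, by 0.91 and 0.75 on the log2 scale (limma adjusted p = 8.4e-05 and 0.000465), followed by the cold-inducible Rbm3 (0.60 and 0.53). Khdrbs3, a relative of Sam68, rose by 0.71 and 0.78 at a low level.

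Of 6 tested kinases outside the Clk family, 1 rose and 1 fell in control cells, and 0 rose and 1 fell in cKO cells. Over all tested genes, 14.9% rose and 14.1% fell in control cells, and 10.7% rose and 11.4% fell in cKO cells. Dyrk1a fell in both genotypes (-0.37 and -0.31). Dyrk1b rose in control cells (1.17, limma adjusted p = 0.00248) and was at 0.17 in cKO cells (limma adjusted p = 0.68). Srpk1, the main cytoplasmic SR protein kinase, differed by 0.15 and 0.13 without passing (limma adjusted p = 0.0516 and 0.102). The interaction of genotype with culture and the stimulation comparisons called 0 genes of these 3 lists.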

How the data were processed

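Per the labels' protocols, libraries were made from 10 ng of RNA with a TruSeq version 2 kit, which keeps no strand information, and sequenced single-end for 75 bp. Tools named in the submitters' processing notes, without role or order, are CASAVA 1.8, HISAT2 2.1.0, SAMtools 1.4, Partek 6.6 and DESeq2, with the build mm10. The authors deposited normalized log2 values of 15137 symbols in 18 libraries, from -1.36 to 17.2. That the base is 2 was read from the values, and how reads were counted, filtered and normalized is not stated in the labels. Depth is therefore unknown, so no counting interval was given. Titles gave 6 groups of 3.

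A gene was tested when its linear value reached 10 in 3 libraries (10877 genes, or 71.9%). One limma 3.58.1 model of 6 group means was fitted in R 4.3.3, with a trended prior (12 residual degrees of freedom, or 15.7 including the prior). Tests were two-sided, adjusted by Benjamini-Hochberg over all tested genes, with a threshold of 0.05. No pseudocount was added. Contrasts were the culture, stimulation and genotype effects, both interactions and, chosen after seeing the data, stimulated against fresh cells. The fit was tested on simulated data. Tables were made with Python 3.11.15, pandas 2.3.3 and numpy 2.4.6, and drawn with matplotlib 3.10.9. Coordinates, transcript length and GC content (99.3% of tested genes) came from GENCODE M21, and promoters from RefSeq (GRCm38.p6). Any member could be named, as could markers, Creld1 and, from each list of related genes, at most 4 of smallest p. The members and lists were chosen with earlier results of these data known. The 30 alternatives changed the filter on low values, added 5 to the linear value, changed the normalization, variance trend or library weights, added a block or GC terms, fitted only the groups compared, or left out 1 library.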

Additional observations from a re-analysis of the deposited data

How the results depend on the processing

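The members called lower or higher gave 55 results over the culture comparisons and stimulated against fresh cells. Over 1648 values under the alternatives, 1499 kept direction and threshold, 149 lost the threshold and 0 turned direction, and 24 results never lost it. The values of Tra2b, Srsf5, Srsf6 and Hnrnpr in unstimulated culture were among the latter in both genotypes. Library weights were estimated gene by gene, since the default method did not converge.

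Counts of members called are given here in the order higher, then lower, with the share of all tested genes called the same way in parentheses. Where a single direction is named, no member was called in the other. Not every combination is listed. With library weights they were 2 and 23 for culture in control (27.1% and 23.2%) and 29 lower for culture in cKO cells (26.2%). For stimulation they were 14 higher in control (10.1%) and 6 and 12 in cKO cells (29.6% and 23.5%). They were 23 and 3 for genotype fresh (25.7% and 25.0%) and 22 and 5 for genotype unstimulated (24.7% and 31.6%). The interaction with stimulation had 5 and 24 (30.7% and 23.6%). For stimulated against fresh they were 3 and 14 in control (18.7% and 19.2%) and 4 and 30 in cKO cells (35.6% and 31.8%). With the GC slope they were 1 and 19 for culture in control (22.0% and 20.9%) and 1 and 27 in cKO cells (20.5% and 24.9%). For stimulated against fresh the same model gave 4 and 19 in control (20.3% and 20.7%) and 1 and 19 in cKO cells (16.6% and 18.6%). With a GC spline removed they were 1 higher for culture in each genotype (19.4% and 18.3%), and 2 and 16 in control (15.9% and 16.4%) and 1 higher in cKO cells (17.8%) for stimulated against fresh. With only the groups compared they were 5 lower for culture in cKO (3.93%), 1 and 2 for stimulation in cKO (15.5% and 6.1%), 11 and 3 for genotype unstimulated (11.6% and 22.8%), 1 and 8 for the interaction with stimulation (15.8% and 5.99%), and 5 lower for stimulated against fresh in cKO cells (3.78%). Quantile normalization gave 1 and 5 for stimulated against fresh in control cells (8.86% and 8.3%).

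Leaving out each of 18 libraries in turn gave 11 to 21 lower for culture in control and 11 to 23 in cKO cells. It gave 0 to 1 higher for stimulation in control, 0 to 5 higher and 0 to 1 lower for genotype fresh, 0 to 3 higher and 0 to 2 lower for genotype unstimulated, and 0 to 1 higher and 0 to 2 lower for the interaction with stimulation. For stimulated against fresh it gave 0 to 1 higher and 6 to 12 lower in control and 12 to 28 lower in cKO cells. Each of these ranges had its highest count without fresh cKO replicate 3. The 1 member higher for stimulated against fresh in control cells, Srsf1, was also called without fresh control replicate 1 and without stimulated control replicate 2.

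Turns of direction were listed for the called results and for part of those not called. The listed values that turned were all of members not called, and some were well away from 0 as reported. Others turned without being listed. With the GC slope the member median went from 0.14 to -0.05 for genotype unstimulated and from -0.20 to 0.03 for the interaction with stimulation. Hnrnpf in culture of control cells was 0.0611 with quantile normalization, 0.0204 with library weights, 0.0138 with the GC slope, 0.0581 with a GC spline, and ran from -0.043 to 0.0247 with a library left out. In cKO cells quantile normalization gave 0.15 for Hnrnpf and 0.0253 for Hnrnpl. With the GC slope, Clk1 under stimulation in cKO cells went from -0.28 to 0.00732 and Hnrnpu in the interaction with stimulation from -0.37 to 0.0186. With a GC spline, Srsf4 went from 0.35 to -0.0155 for stimulation in cKO cells, from -0.45 to 0.0221 for genotype unstimulated and from 0.53 to -0.0757 for that interaction. Srsf1, stimulated against fresh in cKO cells, was -0.12 with library weights and ran from -0.0897 (without fresh cKO replicate 3) to 0.133 with a library left out. The cause of these changes was not tested.

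Runs of library numbers in the titles were tried as a replicate block. Deviations from the group means correlated by -0.683 to 0.689 between libraries of the same run (median 0.134, 45 pairs). Between runs they correlated by -0.831 to 0.796 (median -0.0671, 90 pairs). Deviations within a group cancel out, so the values within and between runs are not independent. Of 18 libraries 10 were most like one of their own run. Pairs of the same run also correlated negatively, and these values cannot decide whether the numbers pair the samples. The main model held no block. With the replicate block the counts were 18 lower in control (15.8%) and 15 lower in cKO cells (12.8%) for culture. They were 1 lower for genotype unstimulated (6.67%), and 1 higher and 9 lower for stimulated against fresh in control cells (10.9% and 10.4%). With the replicate block and the GC slope together, culture gave 1 higher and 18 lower in control (20.5% and 20.1%). In cKO cells it gave 1 higher and 26 lower (20.8% and 25.2%). Stimulated against fresh gave 4 higher and 19 lower in control (20.6% and 21.1%) and 1 higher and 18 lower in cKO cells (14.4% and 17.3%). Hnrnpu in the interaction with stimulation was 0.0199 under this setting.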

Other observations

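Genes of nonsense-mediated decay, the pathway that removes the unproductive transcripts of many SR protein and hnRNP genes, were read in the same comparison. Of 18 tested, 6 fell and 0 rose in control cells and 5 fell and 0 rose in cKO cells, with list medians of -0.18 and -0.19 (limma, adjusted p under 0.05, where 14.1% and 11.4% of all tested genes fell). Parts of the exon junction complex were among them: Rbm8a fell by 0.48 and 0.39 on the log2 scale, Magoh by 0.51 and 0.41, and its paralogue Magohb by 0.60 and 0.51. Of 14 nuclear import and export factors 1 fell in each genotype, the export receptor gene Nxf1, by 0.41 and 0.26. Stimulation called 0 genes of both lists.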
